A study of Mus musculus with 4 samples.

Results

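Chemokines are small secreted proteins that draw cells carrying the matching receptor, and 10 of their genes (Ccl2, Ccl7, Ccl12, Ccl3, Ccl4, Ccl5, Cxcl9, Cxcl10, Cxcl12 and Cx3cl1) were followed among the 54348 genes of the deposited table. They were chosen by symbol with their levels in these libraries already known, so their values are given as a description, with no test. The fusion group was 2 libraries from PdgfraCreER;MN1:BEND2;AI14 mice and the control group 2 libraries from PdgfraCreER;AI14 mice. Both groups therefore carried PdgfraCreER, a tamoxifen-activated Cre recombinase made where Pdgfra is active, and AI14, which turns on red fluorescent tdTomato once Cre has acted. Both received tamoxifen at postnatal days 0 and 1 and were killed at day 4. MN1:BEND2 is the fusion gene found in astroblastoma, a brain tumour, and the labels do not say what drives it in these mice. Forebrains were freed of the pial membranes and digested for 30 min with papain, and live tdTomato-positive cells were sorted. The labels call these cells the Pdgfra lineage, and Pdgfra is expressed by oligodendrocyte precursor cells and also by some fibroblasts. Whether replicate libraries stem from different mice is not stated in the labels, so a p-value reflects only how far these libraries differ, and that spread may be technical.

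The ligands act on a small set of receptors. CCL2, CCL7 and the mouse protein CCL12 bind CCR2 and attract monocytes. CCL3, CCL4 and CCL5 attract monocytes and T cells, and CCL3 and CCL5 bind CCR1. CXCL9 and CXCL10 are interferon-induced ligands of CXCR3 on T and natural killer cells. CXCL12 signals through CXCR4, is taken up by ACKR3 and is made by meningeal cells, where it guides migrating neurons. CX3CL1 is a membrane-anchored ligand made mainly by neurons, and its receptor CX3CR1 marks microglia. Many inflammatory chemokine genes are switched on by NF-kappaB and interferon-regulated factors that bind upstream of the gene.

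The window of 250 bases upstream of the gene start was available in RefSeq (GRCm38.p6) for 6 of the 10 genes. Cxcl10 and Cxcl9 are shown because they lie side by side and differed in level, and Ccl12 because it had the highest level. Each is written 5′ to 3′ on the strand of the gene, with matches to the searched motifs in capitals. The Cxcl10 window is chr5:92348890-92349139, strand −, the Cxcl9 window is chr5:92328080-92328329, strand −, and the Ccl12 window is chr11:82101595-82101844, strand +.
Cxcl10: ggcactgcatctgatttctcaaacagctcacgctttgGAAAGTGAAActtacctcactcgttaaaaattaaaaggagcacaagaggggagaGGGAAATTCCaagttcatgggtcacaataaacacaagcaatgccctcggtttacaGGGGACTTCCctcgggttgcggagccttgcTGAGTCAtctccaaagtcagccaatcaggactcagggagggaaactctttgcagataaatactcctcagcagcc
Cxcl9: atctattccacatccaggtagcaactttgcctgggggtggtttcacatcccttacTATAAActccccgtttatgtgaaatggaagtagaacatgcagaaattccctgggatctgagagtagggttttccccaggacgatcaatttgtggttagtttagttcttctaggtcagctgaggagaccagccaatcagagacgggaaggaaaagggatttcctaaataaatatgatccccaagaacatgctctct
Ccl12: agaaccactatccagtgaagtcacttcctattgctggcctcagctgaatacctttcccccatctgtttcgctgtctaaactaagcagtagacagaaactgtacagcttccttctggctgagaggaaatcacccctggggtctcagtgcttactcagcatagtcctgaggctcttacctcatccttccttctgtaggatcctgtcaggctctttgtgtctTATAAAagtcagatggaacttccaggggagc

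The motifs were searched on both strands, and their letters were chosen with the Cxcl10 window in view. The Cxcl10 window held 1 match to the interferon-stimulated response element (GAAA, any 2 bases, GAAA), 213 to 204 bases upstream, and such a match was present in 2.98% of 32851 windows of the same length. It held matches to the NF-kappaB motif (GGG, any 3 bases, TTCC) 159 to 150 and 104 to 95 bases upstream, a motif present in 4.65% of windows. It also held a match to the AP-1 motif (TGANTCA) 74 to 68 bases upstream, a motif present in 6.75% of windows. The TATA box letters (TATAAA), present in 12.4% of windows, were found 31 to 26 bases upstream in Ccl12, 195 to 190 in Cxcl9 and 6 to 1 in Cx3cl1, whose RefSeq start lies inside the gene as GENCODE places it. The interferon-gamma activated site (TTCNNNGAA), present in 7.02% of windows, had no match in the 6 windows, and the Ccl3 and Cxcl12 windows held no match to any of the motifs. A match of letters is a description and does not show that a factor binds there.

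Levels are TPM, each gene's share of the transcripts of its library after correction for length, so genes can be compared within a library. Read depth is not recoverable from TPM. Bend2 was at 3.82 and 8.72 TPM in the fusion libraries and listed at 0 in both control libraries. Transcripts encoded by mitochondrial DNA held 48.7% and 26.2% of TPM in fusion libraries 1 and 2, against 10.1% and 7.30% in control libraries 1 and 2, and 9050 and 10017 genes reached 1 TPM in the fusion libraries, against 12772 and 13219 in the control libraries. Eif2s3y, a Y-linked gene, was listed at 0 in both fusion libraries, against 121 and 122 TPM in the control libraries, so sex and genotype cannot be told apart. Log2(TPM + 1) values correlated at 0.894 between the fusion libraries and 0.973 between the control libraries, across genes, which are not independent replicates. Among the 12871 genes that reached 1 TPM in 2 or more libraries, 637 rose (4.95%) and 6606 fell (51.3%) by limma at an adjusted p under 0.05, with a median log2 change of -1.41. After median ratio scaling between libraries 1846 rose and 2396 fell, and without control library 1 or 2 the counts were 15 and 14 rises and 1105 and 1025 falls. Changes below are on the log2(TPM + 1) scale, fusion minus control, and a gene at the median change lies at -1.41.

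Of the 10 ligands, 8 were above both control libraries in both fusion libraries, Cx3cl1 was below both, and Cxcl9 overlapped. Among all tested genes both fusion libraries were above both control libraries in 10.2% and below them in 71.1%. Since the ligands were chosen with this contrast known, nothing is read from their count. Their summed level was 2771 and 2036 TPM in the fusion libraries, which is 0.277% and 0.204% of each library, against 13.2 and 45.6 TPM in the control libraries. Ccl2, Ccl7 and Ccl12 made up 76.3% and 54.9% of that sum in the fusion libraries, against 14.8% and 0% in the control libraries. Cxcl12 made up 2.22% and 3.07% in the fusion libraries, against 57.2% and 86.1% in the control libraries. By mean level in the fusion libraries the order was Ccl12, Ccl2, Ccl5, Ccl7, Cxcl10, Ccl4, Ccl3, Cxcl12, Cx3cl1 and Cxcl9. Neighbours at the top of this order did not keep their places in both libraries, since Ccl12 was above Ccl2 in fusion library 1 and below it in library 2. Ccl5 was above Ccl7 in library 1 and below it in library 2. Ccl4 was likewise above Ccl3 in library 1 alone, whereas Cxcl12 was below Cxcl10 and Ccl4 in both libraries and Cx3cl1 and Cxcl9 were far below the others in both.

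**Figure D1:**
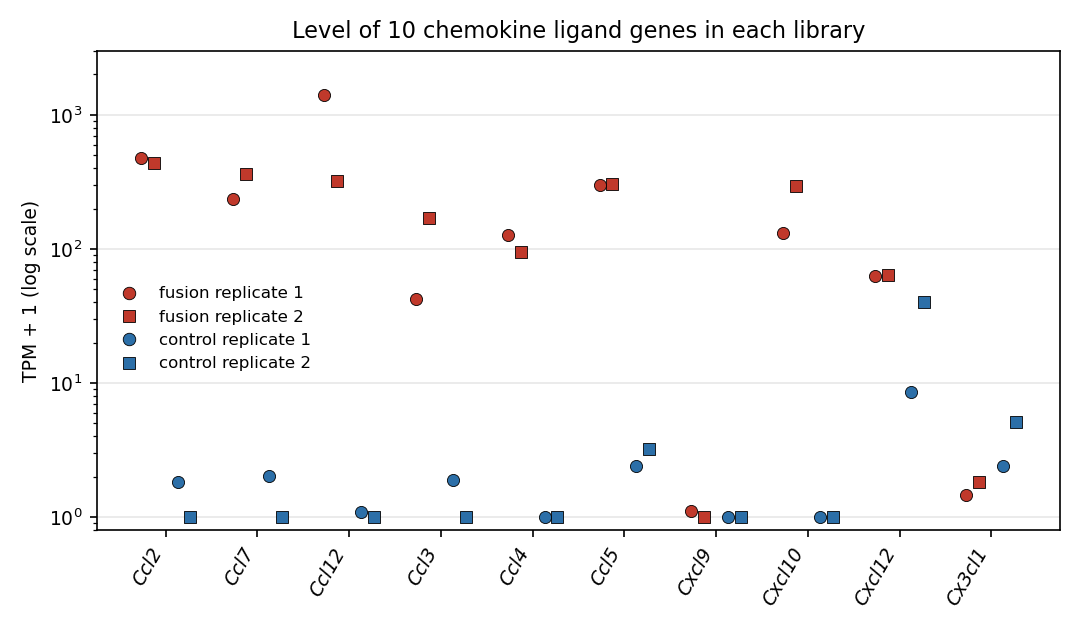
Level of the 10 chemokine ligand genes in each library, as TPM + 1 on a log axis. Each symbol is 1 library, circles and squares are replicates 1 and 2, and a symbol at 1 is a gene listed at 0. Ccl2, Ccl7, Ccl12, Ccl3, Ccl4, Ccl5 and Cxcl10 lie at 41.1 TPM or more in the fusion libraries and at 2.23 TPM or less in the control libraries.

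The CCR2 ligands lie together on chromosome 11. Ccl12 (ENSMUSG00000035352.3, chromosome 11, 82101845 to 82103400, GRCm38) had 1403 and 321 TPM in fusion libraries 1 and 2, against 0.101 and 0 TPM in control libraries 1 and 2. The fusion libraries were 4.37-fold apart and did not overlap the controls, and Ccl12 ranked 80th and 444th of the 54348 genes in them. The log2 change was 9.32 ± 0.74 (SE, n = 2 libraries a group). Ccl12 was the least even of the 3 CCR2 ligands. Ccl2 (ENSMUSG00000035385.5, 82035571 to 82037453) had 479 and 434 TPM in the fusion libraries, against 0.832 and 0 TPM in the control libraries, a log2 change of 8.40 ± 0.44 (SE). Ccl7 (ENSMUSG00000035373.2, 82045712 to 82047525) had 233 and 362 TPM in the fusion libraries, against 1.02 and 0 TPM in the control libraries, a log2 change of 7.68 ± 0.51 (SE). All 3 were near the bottom of the range in both control libraries, and 0 there means only that the gene was listed at 0. The ratio of Ccl12 to Ccl2 was 2.93 in fusion library 1 and 0.74 in fusion library 2, so the ligands did not stay in 1 proportion.

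The order along the chromosome shows that a gene between these ligands did not follow them. Ccl11, an eosinophil attractant that lies between Ccl7 and Ccl12 (82057823 to 82062955), was listed at 0 in both fusion libraries, against 0 and 0.715 TPM in the control libraries. Ccl8, a further gene of the monocyte chemoattractant protein family beside Ccl12 (82115185 to 82116799), had 3.75 and 25.4 TPM in the fusion libraries and was listed at 0 in both control libraries. Ccl1, the last of the row, was listed at 0 in every library. Between adjacent genes the level in fusion library 1 thus ran from 1403 TPM (Ccl12) to 3.75 TPM (Ccl8) on one side and 0 (Ccl11) on the other.

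Ccl5, Ccl3 and Ccl4 lie in a second group on the same chromosome. Ccl5 (ENSMUSG00000035042.2, 83525778 to 83530518), a ligand of CCR1, had 297 and 302 TPM in the fusion libraries, against 1.40 and 2.23 TPM in the control libraries. It was the most even of the high ligands between the fusion libraries, with 300 ± 3.62 TPM against 1.81 ± 0.589 TPM in the control libraries (SD, n = 2 each), a ratio of 165 and a log2 change of 6.76 ± 0.37 (SE). Ccl4 (ENSMUSG00000018930.3, 83662584 to 83664683) had 125 and 93.4 TPM in the fusion libraries and was listed at 0 in both control libraries, a log2 change of 6.77 ± 0.41 (SE) that depends on the pseudocount. Ccl3 (ENSMUSG00000000982.5, 83647844 to 83649355) had 41.1 and 168 TPM in the fusion libraries, against 0.901 and 0 TPM in the control libraries, a log2 change of 5.93 ± 0.78 (SE). Ccl3 and Ccl4 are neighbours, yet their order reversed between the fusion libraries, with a Ccl3 to Ccl4 ratio of 0.329 in library 1 and 1.8 in library 2. Between Ccl5 and Ccl3 lie Ccl9 and Ccl6, both CCR1 ligands, whose levels were lower in the fusion libraries than those of the ligands on either side, at 6.40 and 6.96 TPM for Ccl9 and 17.4 and 33.9 TPM for Ccl6.

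**Figure D2:**
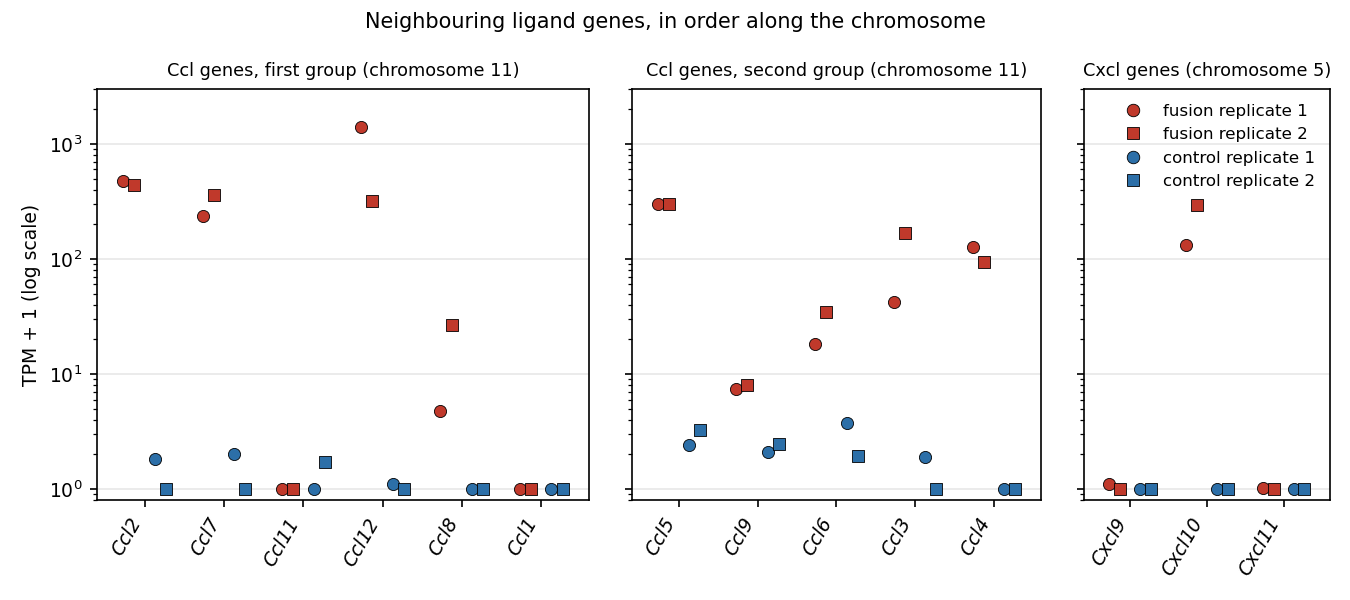
Level of the chemokine genes of 3 chromosomal groups in chromosomal order, as TPM + 1 on a log axis, with 1 symbol for each library. Ccl11 and Ccl1 in the first group, and Cxcl9 and Cxcl11 in the Cxcl10 group, stay under 1 TPM in every library, while Ccl2, Ccl7, Ccl12 and Cxcl10 lie at over 100 TPM in both fusion libraries.

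Of the CXCR3 ligands Cxcl10 alone was high. Cxcl10 (ENSMUSG00000034855.13, chromosome 5, 92346638 to 92348889) had 131 and 291 TPM in the fusion libraries and was listed at 0 in both control libraries, a log2 change of 7.61 ± 0.51 (SE). Cxcl9 (ENSMUSG00000029417.9, 92321347 to 92328079), its neighbour, had 0.114 and 0 TPM in the fusion libraries and was listed at 0 in both control libraries. Cxcl11, on the other side of Cxcl10 (92359544 to 92365485), had 0.0131 and 0 TPM in the fusion libraries and was listed at 0 in both control libraries. Cxcl9 was not tested, since it did not reach 1 TPM in any library.

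Cxcl12 was the 1 ligand of the 8 that was also abundant in a control library. Cxcl12 (ENSMUSG00000061353.11, chromosome 6, 117168535 to 117181367) had 61.5 and 62.4 TPM in the fusion libraries, against 7.56 and 39.3 TPM in the control libraries. The fusion libraries were 1.01-fold apart and the control libraries 5.19-fold, and the lowest fusion value was 1.57 times the highest control value. The log2 change was 1.76 ± 0.77 (SE), and it was 0.64 without control library 1 and 2.88 without control library 2, so its size rests on which control library is kept. Its order was thus the least separated of the 8 ligands above both controls.

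Cx3cl1 was low everywhere. Cx3cl1 (ENSMUSG00000031778.13, chromosome 8, 94772009 to 94782427) had 0.467 and 0.825 TPM in the fusion libraries, against 1.41 and 4.11 TPM in the control libraries. Both fusion libraries were below both controls, and the log2 change was -1.10 ± 0.45 (SE), which is 0.30 above the median change of all tested genes. It was -1.64 without control library 1 and -0.56 without control library 2. Its sign turned to 0.23 under quantile normalization, so no direction is read from it.

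Taking the mitochondrially encoded genes out of the total left the 7 high ligands high. Ccl12 was then at 2738 and 436 TPM in the fusion libraries, against 0.112 and 0 TPM in the control libraries, and Ccl5 at 580 and 410 TPM, against 1.56 and 2.41 TPM. Over the settings tried, the log2 change ranged from 7.07 to 12.21 for Ccl12, from 6.42 to 10.54 for Ccl2, from 5.75 to 9.76 for Ccl7, and from 5.49 to 8.12 for Ccl5. It ranged from 4.5 to 10.08 for Ccl4, from 4.04 to 8.04 for Ccl3, from 5.32 to 10.93 for Cxcl10 and from 0.64 to 3.44 for Cxcl12.

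The ligands are related in sequence, and how far their reads could be told apart was looked at in the GENCODE M21 transcripts. Coding sequences were 68.0% identical between Ccl2 and Ccl7, 67.6% between Ccl2 and Ccl12, 69.1% between Ccl7 and Ccl12 and 69.6% between Ccl3 and Ccl4, over aligned bases. The longest exact run shared by the transcripts was 23 bases for Ccl2 and Ccl7, 17 for Ccl2 and Ccl12, 11 for Ccl7 and Ccl12 and 9 for Ccl3 and Ccl4, and reads were 100 bases long. No stretch of 31 bases in the transcripts of 8 of the ligands occurred in another gene. The exceptions were Cxcl9 with 0.599% and Cxcl12 with 0.161% of such stretches. The transcripts of the 7 high ligands are short, 532 to 1353 bases, where the median of 10932 tested genes with a coding transcript was 3090 bases. Tested genes within that range of lengths numbered 1275, with a median log2 change of -0.97. Of these 9.41% rose and 40.0% fell, beside 4.95% and 51.3% of all tested genes, and the part of transcript length in the ligand levels was not tested.

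For Ccl12, Cxcl10 and Cxcl12 the 3 genes nearest in pattern were taken by Euclidean distance over log2(TPM + 1) in the 4 libraries, among 6990 genes with a mean of at least 5 TPM. The 10 ligands themselves were left out, as were predicted, pseudogene and mitochondrially encoded gene models. Nearest to Cxcl10 among these candidates were Plac8 (distance 1.06, with 266 and 239 TPM in the fusion libraries and 0 in both control libraries), Sct (1.71) and Xaf1 (2.06). Nearest to Ccl12 among them were Plac8 (2.44), Mgp (2.58) and Ifi27l2a (2.74), the last at 827 and 419 TPM in the fusion libraries, against 5.39 and 0.503 TPM in the control libraries. Ccl12 had no candidate as near as Cxcl10 had, in terms of this distance. Nearest to Cxcl12 were Igf2 (1.05), at 49.7 and 97.3 TPM in the fusion libraries, against 6.10 and 23.2 TPM in the control libraries, Cdkn1c (1.13) and Zfp971 (1.28).

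**Figure D3:**
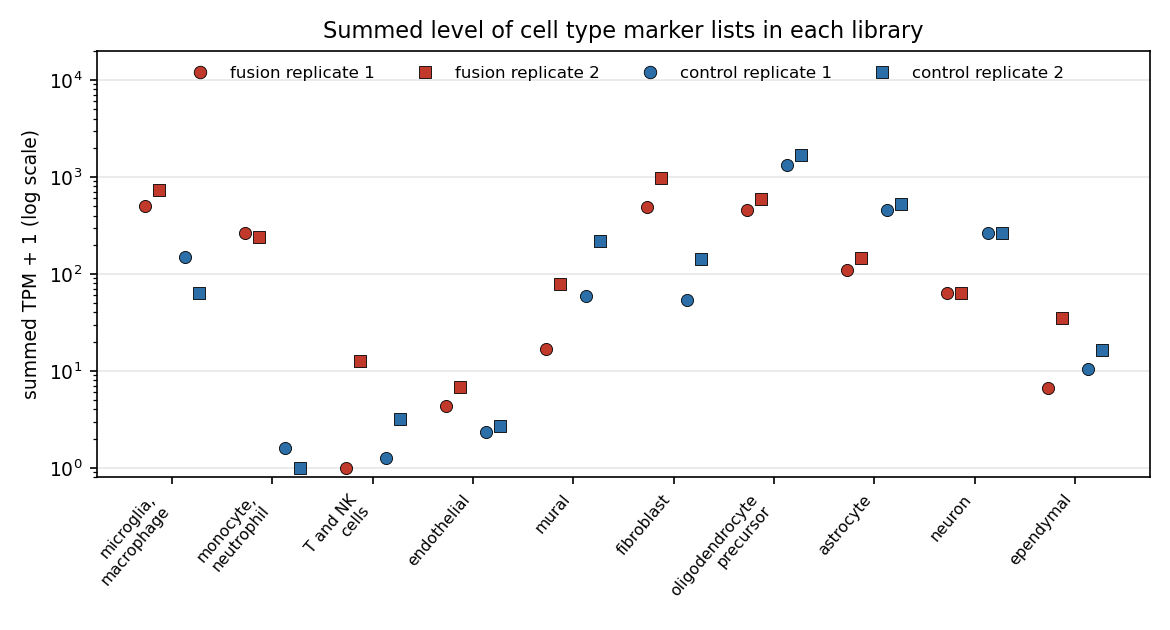
Summed TPM of each cell type marker list in each library, on a log axis. The microglia and macrophage, monocyte and neutrophil, endothelial, and fibroblast sums are higher in both fusion libraries than in both control libraries. The oligodendrocyte precursor, astrocyte and neuron sums are lower in TPM. After median ratio scaling the first of these is higher, the astrocyte sums stay lower and the neuron sums overlap between groups.

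Summed markers of myeloid cells were also higher in the fusion libraries. The 20 microglia and macrophage markers summed to 501 and 740 TPM in the fusion libraries, against 150 and 62.6 TPM in the control libraries. Of the 14 tested, 4 were higher and 2 lower past the threshold (limma, Benjamini-Hochberg), beside 4.95% higher and 51.3% lower among all tested genes. Fcer1g, an immune receptor chain, had 327 and 480 TPM in the fusion libraries, against 27.4 and 1.17 TPM in the control libraries (adjusted p = 0.0136), and its partner Tyrobp 105 and 116 TPM, against 16.6 and 7.66 TPM (adjusted p = 0.00537). These made up most of the sum. The defining microglial gene P2ry12 was listed at 0 in both fusion libraries, against 1.81 and 1.03 TPM in the control libraries, and Cx3cr1 had 0 and 0.112 TPM in the fusion libraries, against 0.697 and 0.854 TPM in the control libraries. P2ry12, among those lower past the threshold, passed the filter through the control libraries alone, so its direction was largely fixed in advance. Csf1r, needed by macrophages, was at 1.33 and 1.27 TPM in the fusion libraries, against 1.54 and 0.499 TPM in the control libraries. The 10 monocyte and neutrophil markers summed to 266 and 239 TPM in the fusion libraries, against 0.603 and 0 TPM in the control libraries, but nearly all of this was Plac8, the 1 tested gene of the list, which rose (adjusted p = 0.00367, limma). Plac8 passed the filter through the fusion libraries alone, so its direction was largely fixed in advance. S100a9, Ly6g, Ngp, Retnlg and Lcn2 were listed at 0 in every library, and Ly6c2 and Ccr2 were at most 0.0295 TPM. Ccr2 and Cx3cr1 also stand in the list of receptors below. The 12 T and natural killer cell markers summed to 0.00652 and 11.5 TPM in the fusion libraries, against 0.276 and 2.17 TPM in the control libraries, with Trbc2 as nearly the whole sum in fusion library 2 and the control libraries and at 0 in fusion library 1. The other lymphocyte genes Cd3d, Cd3e and Cd3g were among 9 markers at 0 in every library. In these bulk samples fewer cells of a type and less RNA per cell cannot be told apart, and the part of these cell types in the ligand levels was not tested.

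Fibroblast markers were higher in sum in the fusion libraries, and several of them were also higher singly. The 10 fibroblast markers summed to 486 and 971 TPM in the fusion libraries, against 52.6 and 140 TPM in the control libraries. The 8 tested ones comprised 3 that rose and 5 that did not pass, beside 4.95% rises among all tested genes. Ogn and Col15a1, not tested and at most 1.21 TPM in any library, were listed at 0 in both fusion libraries and were above 0 in both control libraries. Mgp, a matrix protein of vascular and mesenchymal cells, took most of the sum, at 364 and 717 TPM in the fusion libraries, against 0 and 1.34 TPM in the control libraries (adjusted p = 0.00367, limma). Col1a1 also rose, at 25.9 and 51.6 TPM in the fusion libraries, against 3.78 and 9.27 TPM in the control libraries (adjusted p = 0.0192, limma). So did Foxc1, which passed the filter through the fusion libraries alone (adjusted p = 0.007, limma). Dcn overlapped between groups, at 37.6 and 67.6 TPM in the fusion libraries, against 18.9 and 66.5 TPM in the control libraries, and Dcn and Cxcl12 were both higher in control library 2 than in control library 1. The 8 mural markers summed to 16 and 77.5 TPM in the fusion libraries, against 58.2 and 217 TPM in the control libraries, and none of 2 tested passed (limma, 0 at an unadjusted p under 0.05). The 10 endothelial markers summed to 3.35 and 5.88 TPM in the fusion libraries, against 1.36 and 1.72 TPM in the control libraries, and the 1 tested, Cdh5, rose (adjusted p = 0.0231). Cdh5 also passed the filter through the fusion libraries alone. The 10 oligodendrocyte precursor markers of the sorted lineage were present in every library and summed to 459 and 590 TPM in the fusion libraries, against 1311 and 1691 TPM in the control libraries, with 6 of 10 falling, beside 51.3% of all tested genes. Lhfpl3 was at 55.7 and 45.4 TPM in the fusion libraries, against 336 and 383 TPM in the control libraries (adjusted p = 0.00385, limma), and Pdgfra at 123 and 192 TPM, against 337 and 429 TPM (adjusted p = 0.0358). After median ratio scaling this order turned, with summed levels of 1001 and 854 in the fusion libraries and 736 and 815 in the control libraries. Astrocyte markers summed to 109 and 145 TPM in the fusion libraries, against 452 and 526 TPM in the control libraries, neuron markers to 62.9 and 62.4 TPM against 264 and 262 TPM, and ependymal markers to 5.68 and 34 TPM against 9.41 and 15.3 TPM. The part of any of these in the level of Cxcl12 was not tested.

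Most of the other chemokine ligands stayed under 1 TPM, and a few rose. Of 29 further ligand genes 11 were tested, and by limma 5 rose, 1 fell and 5 did not pass, beside 4.95% rises and 51.3% falls among all tested genes, with a median log2 change of 1.75 where that of all tested genes was -1.41. Ccl19, a ligand of CCR7, had 17.2 and 92.3 TPM in the fusion libraries, against 0.433 and 2.95 TPM in the control libraries, a log2 change of 4.11 ± 0.94 (SE, adjusted p = 0.0169). Ccl8 rose by 3.49 ± 0.84 (adjusted p = 0.0197) and Ccl6, at 17.4 and 33.9 TPM in the fusion libraries, against 2.72 and 0.943 TPM in the control libraries, rose by 3.24 ± 0.57 (adjusted p = 0.00826). Cxcl1, a neutrophil attractant, had 3.49 and 5.77 TPM in the fusion libraries, against 0 and 0.349 TPM in the control libraries, and rose by 2.25 ± 0.38 (adjusted p = 0.00722). The fifth, Ccl9, rose by 1.75 ± 0.40 (adjusted p = 0.0165). Ccl25, a thymic and gut ligand of CCR9, fell to 13.1 and 7.69 TPM in the fusion libraries, against 33.3 and 26.9 TPM in the control libraries (log2 change -1.48 ± 0.43, adjusted p = 0.0333), a change at the median of all genes that turned to 0.19 and 0.27 under median ratio scaling and quantile normalization. Ccl27a, a skin chemokine, did not pass, with 24.5 and 25.5 TPM in the fusion libraries, against 44.6 and 60.1 TPM in the control libraries (adjusted p = 0.0578). The platelet chemokine Pf4 did not pass either, with 55.3 and 23.6 TPM in the fusion libraries, against 17.8 and 0 TPM in the control libraries (adjusted p = 0.113). Listed at 0 in every library were Ccl1, Ccl20, Ccl21a, Ccl21b, Ccl26, Cxcl5, Cxcl13, Cxcl17, Ppbp and Xcl1. Ccl8 and Cxcl1 reached 1 TPM in the fusion libraries alone, so the filter largely fixed their direction in advance. With no filter on low values 19 of these genes were fitted, their median was 0.23 and 3 rose. Ccl8 and Ccl19 then no longer passed. The 5 rises became 0 without control library 1 or without control library 2, and the 1 fall became 0 without either, 3 without fusion library 1 and 2 without fusion library 2.

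The receptors stayed low. Of 23 receptor genes 4 were tested, and by limma none rose (1 at an unadjusted p under 0.05) and 2 fell, beside 4.95% rises and 51.3% falls among all tested genes, with a median log2 change of -0.62 beside -1.41. Receptors of several high ligands were hardly detected, with Ccr2 at 0.00646 and 0 TPM in the fusion libraries, against 0.0122 and 0 TPM in the control libraries. Ccr1 was at 0 and 0.835 TPM in the fusion libraries, against 0.233 and 0 TPM in the control libraries. Cxcr3, the CXCL10 receptor, was listed at 0 in every library, and Cxcr4 was at 0.147 and 0 TPM in the fusion libraries, against 0.170 and 0.104 TPM in the control libraries. Ackr3, which takes up CXCL12 from the surroundings, had 1.45 and 0.678 TPM in the fusion libraries, against 17.1 and 15.6 TPM in the control libraries, and fell by 3.10 on the log2 scale (SE 0.45, adjusted p = 0.00527), a change of -1.69 relative to the median. It was -1.73 and no longer passed under median ratio scaling. Ccrl2, an atypical receptor, had 0.848 and 0.258 TPM in the fusion libraries, against 2.26 and 2.17 TPM in the control libraries (log2 change -1.08 ± 0.32, adjusted p = 0.0369), and turned to 0.29 under quantile normalization. Ccrl2 passed the filter through the control libraries alone, so its direction was largely fixed in advance. Ackr1 did not pass, at 12.2 and 6 TPM in the fusion libraries and 8.83 and 10.6 TPM in the control libraries (adjusted p = 0.812), nor did Cxcr2, at 1.92 and 1.27 TPM in the fusion libraries and 0.510 and 0.461 TPM in the control libraries (adjusted p = 0.0534), which passed as higher, by 1.61, under median ratio scaling. The median of the tested receptors was 0.66 under that scaling. Cxcr2 passed the filter through the fusion libraries alone, so its direction was also largely fixed in advance. The 2 falls became 0 without control library 1 or 2 and 1 without fusion library 2, where 1 receptor also rose.

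**Figure D4:**
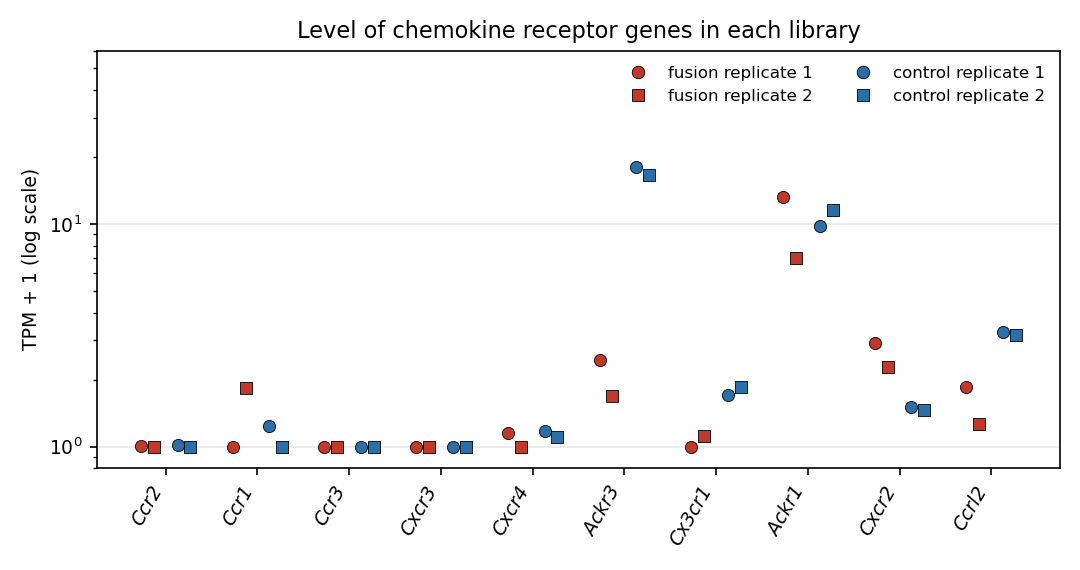
Level of chemokine receptor genes in each library, as TPM + 1 on a log axis, with 1 symbol for each library. Ackr3 is the receptor whose libraries stand furthest apart, at 1.45 and 0.678 TPM in the fusion libraries and 17.1 and 15.6 TPM in the control libraries.

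Genes that hold chemokines at the cell surface or cleave them fell in a share close to that of all tested genes. Of 22 such genes 19 were tested, and by limma 1 rose (5.26%, beside 4.95% of all tested genes), 11 fell (57.9%, beside 51.3%) and 7 did not pass, with a median log2 change of -1.48 beside -1.41. Tnfaip6, a secreted protein that binds chemokines and hyaluronan, fell to 2.19 and 5.24 TPM in the fusion libraries, against 38.6 and 33.6 TPM in the control libraries (log2 change -3.05 ± 0.48, adjusted p = 0.00645). Heparan sulphate proteoglycans, which present chemokines to passing cells, were among the falls, with Gpc3 changed by -2.87 ± 0.51 (adjusted p = 0.00854), Sdc3 by -2.86 ± 0.44 (adjusted p = 0.00613), Gpc1 by -2.46 ± 0.32 (adjusted p = 0.00442) and Sdc2 by -2.30 ± 0.53 (adjusted p = 0.0175). Adam17, a protease that sheds CX3CL1, fell to 5.30 and 4.27 TPM in the fusion libraries, against 16.5 and 21.3 TPM in the control libraries (adjusted p = 0.0173), while Adam10, which also sheds it, had 7.45 and 16.0 TPM in the fusion libraries, against 28.1 and 28.4 TPM in the control libraries, and did not pass (adjusted p = 0.0658). The 1 gene that rose was Mmp9, a secreted protease, at 1.39 and 5.53 TPM in the fusion libraries and 0 in both control libraries (log2 change 1.98 ± 0.51, adjusted p = 0.024). Mmp9 passed the filter through the fusion libraries alone, so its direction was largely fixed in advance. Among the falls, Gpc3, Gpc1, Ndst1 and Hs6st1 passed it through the control libraries alone, so the same holds for them. Without control library 1 or 2 the 11 falls became 3 and the rise became 0. Under median ratio scaling 5 of these genes fell, their median was -0.10, and Gpc3, Sdc2 and Adam17 no longer passed.

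Genes of receptor signalling fell in a share close to that of all tested genes. Of 25 such genes 18 were tested, and by limma none rose (0 at an unadjusted p under 0.05, beside 4.95% called among all tested genes), 9 fell (50%, beside 51.3%) and 9 did not pass, with a median log2 change of -1.04 beside -1.41. Elmo1, which couples receptors to the migration GTPase Rac, fell to 1.27 and 1.95 TPM in the fusion libraries, against 43.4 and 51.2 TPM in the control libraries (log2 change -4.22 ± 0.41, adjusted p = 0.00371). The G protein subunit genes Gnb1 (17.2 and 39.5 TPM in the fusion libraries, against 467 and 419 TPM in the control libraries), Gnai2 (2.62 and 3.28 TPM, against 34.1 and 41.4 TPM) and Gnai3 (11.6 and 13.3 TPM, against 77.0 and 80.9 TPM) also fell, with log2 changes of -4.03, -3.29 and -2.57 (adjusted p = 0.00387, 0.00393 and 0.00453). Gnb2 changed by -1.79 (adjusted p = 0.00953) and Prex1, a Rac activator, by -2.86 (adjusted p = 0.00728). Grk6 and Plcb3, also among the falls, passed the filter through the control libraries alone, so their direction was largely fixed in advance. Rac1 itself did not pass, at 79.8 and 72.8 TPM in the fusion libraries and 108 and 105 TPM in the control libraries (log2 change -0.48 ± 0.32, adjusted p = 0.246), and its change was 1.27 under median ratio scaling. Without control library 1 or 2 the 9 falls became 0, and without fusion library 1 there was 1 rise. Under median ratio scaling 3 fell and 2 rose, Gnai3, Gnb2 and Prex1 no longer passed, and the median was -0.12, or 0.28 under quantile normalization.

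Regulators that switch chemokine genes on did not move together. Of 31 such genes 23 were tested, and by limma 2 rose (8.70%, beside 4.95% of all tested genes), 8 fell (34.8%, beside 51.3%) and 13 did not pass, with a median log2 change of -1.35 beside -1.41. The 2 rises were interferon-regulated transcription factors: Irf7 had 9.20 and 21.1 TPM in the fusion libraries, against 0.0240 and 0.339 TPM in the control libraries (log2 change 3.68 ± 0.53, adjusted p = 0.00537), and Irf9, named after its value was seen, had 7.49 and 25.1 TPM in the fusion libraries, against 1.97 and 2.39 TPM in the control libraries (2.23 ± 0.65, adjusted p = 0.0341). Irf7 passed the filter through the fusion libraries alone, so its direction was largely fixed in advance. Ikbkg, among the falls, passed it through the control libraries alone, so the same holds there. Nfkbia, the inhibitor of NF-kappaB that NF-kappaB itself induces, fell to 1.24 and 1.64 TPM in the fusion libraries, against 43.2 and 58.2 TPM in the control libraries (-4.40 ± 0.41, adjusted p = 0.00367). The receptor gene Ifngr1 fell to 7.57 and 9.26 TPM in the fusion libraries, against 63.7 and 56.1 TPM in the control libraries (adjusted p = 0.00463), Mavs, an adaptor of RNA sensing, fell (adjusted p = 0.0228), and Fos, a component of AP-1, fell by 2.08 (adjusted p = 0.01). Irf3 lay far apart in the fusion libraries, at 1.14 and 21.7 TPM, against 18.7 and 35.4 TPM in the control libraries, and did not pass (adjusted p = 0.199). Without control library 1 or 2 both the 2 rises and the 8 falls became 0, and without fusion library 1 there were 4 rises. Under median ratio scaling 5 rose and 1 fell, the median was 0.19, and Ifngr1, Mavs and Fos no longer passed.

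**Figure D5:**
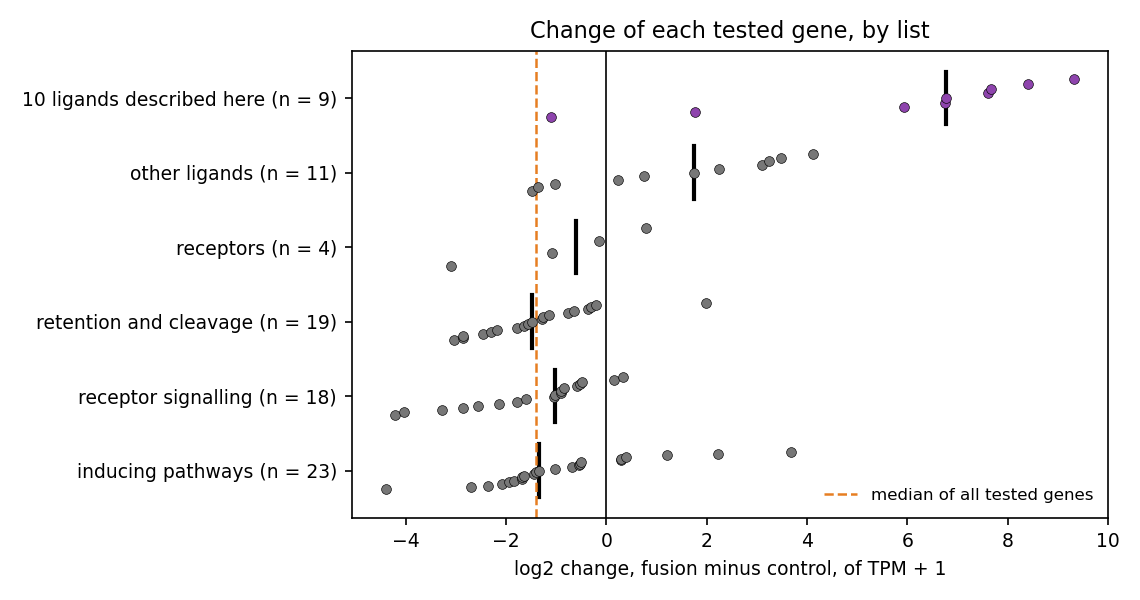
Log2 change (fusion minus control, on log2(TPM + 1)) of the tested genes of each list, with the median of all tested genes, -1.41, as a line. Short black bars mark the median of each list. Of the 9 tested ligands, 7 lie between 5.93 and 9.32, Cxcl12 at 1.76 and Cx3cl1 at -1.10, and the receptor, retention, signalling and inducing genes lie between -4.40 and 3.68.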

How the data were processed

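Per the labels, full-length cDNA was amplified from lysed sorted cells with a single-cell kit and sequenced as 100-base read pairs on an MGISEQ-2000. TPM values of 54348 genes stand in 1 table that the authors deposited. The submitters' processing notes list Trimmomatic 0.39, Salmon 1.8.0, GRCm38 and mm10. The annotation release and the index are, in the sources used here, not given. Depth is unknown, so no counting interval is given.

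Sample titles gave the genotype of each group, and table columns were assigned by group and replicate number. The ligands, the other gene lists and the marker lists were chosen with earlier results of these data known. Where a symbol repeats, which holds for 207 rows, the row of highest mean was used. Genes that reached 1 TPM in 2 or more of the 4 libraries entered limma 3.58.1 (R 4.3.3) as log2(TPM + 1). The fit used lmFit and eBayes with the prior variance following the mean, and 2-sided p-values were adjusted by Benjamini-Hochberg over all of them (threshold 0.05). The filter admits a gene that reaches 1 TPM in the libraries of 1 group alone. For such a gene the direction of the change was largely fixed in advance. A fold change on that scale understates the change of low genes. The fit was tested on simulated data. Named from each pathway list were up to 4 genes past the threshold with the largest change and up to 3 others of highest mean, and from marker lists up to 3 of highest mean and those at 0. Ccl9, Irf9, Mmp9 and single marker or receptor genes outside that rule were picked with their values in view. Some genes that the rule takes are left out of the text. The settings varied were the pseudocount (0.1 or 5), the filter (none, or a mean TPM of 5 or more), scaling by median ratios of 10965 genes, quantile normalization, TPM without mitochondrially encoded genes, no variance trend, a replicate block and each library left out. In the fits without a library the lone library of a group is assumed to vary like the other group.

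Gene positions and transcripts came from GENCODE M21 (GRCm38), matched by identifier for 38 of 39 ligand genes, and coding sequences were aligned with biopython 1.88.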

Additional observations from a re-analysis of the deposited data

How the results depend on the processing

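Over the settings tried, the 9 tested ligands had 81 changes within the spread between replicates, 34 outside it and 1 of opposite sign, Cx3cl1 at 0.23 under quantile normalization. The filters, the variance trend and the replicate block cannot alter the log2 change of a gene. Their results count among the 81 by construction and say nothing of how stable the changes are. The same holds for leaving out 1 library, which cannot shift a change by more than the spread, since both come from the same libraries. Ccl4 and Cxcl10, counted as outside when a fusion library was left out, had shifts equal to the spread, with both control libraries at 0. The other named genes kept direction and call in 302 cases, lost the call in 82, gained it in 14 and turned in 14. Those that turned under median ratio scaling and quantile normalization were Ccl25 (0.19 and 0.27), Ccl27a (0.70 and 0.77), Ackr1 (1.44 and 1.48), Adam10 (0.38 and 0.45) and Rac1 (1.27 and 1.16), and Ccrl2 turned under the second (0.29). Without mitochondrially encoded genes Ackr1 (0.38) and Rac1 (0.08) turned, and with each library left out Ackr1 ranged from -0.61 to 0.31, turning without fusion replicate 2. Counts are given below as rises and falls. Of all tested genes (637 and 6606), 353 rose with no filter, 405 with a mean of at least 5 TPM and 978 without mitochondrially encoded genes, 1846 rose and 2396 fell under median ratio scaling, and 1948 rose and 1955 fell under quantile normalization. Other ligands (5 and 1) had 3 rises and 0 falls with no filter, 3 rises with a mean of at least 5 TPM, 2 falls with a pseudocount of 5, and 0 falls under median ratio scaling, under quantile normalization and without mitochondrially encoded genes. Receptors (0 and 2) had 1 rise and 0 falls under median ratio scaling and under quantile normalization, and 1 fall with a pseudocount of 0.1, with a mean of at least 5 TPM, without mitochondrially encoded genes and with no variance trend. Retention and cleavage genes (1 and 11) had 0 rises with no filter, 0 rises and 7 falls with a mean of at least 5 TPM, and 5, 1 and 7 falls under median ratio scaling, under quantile normalization and without mitochondrially encoded genes. Signalling genes (0 and 9) had 2 rises and 3 falls under median ratio scaling and 1 rise and 3 falls under quantile normalization. Inducing genes (2 and 8) had 5 rises and 1 fall under both scalings, and 5 falls with no filter and without mitochondrially encoded genes. With each library left out in turn, rises ranged from 14 to 1084 and falls from 1025 to 7987 for all tested genes, 0 to 5 and 0 to 3 for other ligands, 0 to 1 and 0 to 2 for receptors, 0 to 1 and 3 to 13 for retention genes, 0 to 1 and 0 to 11 for signalling genes, and 0 to 4 and 0 to 10 for inducing genes. The cause of these shifts was not tested. Same-numbered libraries did not deviate together (correlation -0.04 across genes). With 2 libraries a group this rests on 1 difference in each group, so it cannot decide whether the numbers pair them. With the replicate number as a block 642 genes rose and 6978 fell. TPM keeps no depth, so how firmly a gene listed at 0 is absent cannot be said.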
